A study of Drosophila melanogaster with 14 samples.

Results

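The genes described here are the chemoreceptor genes of Drosophila melanogaster, taken as every gene whose name is Gr, Or or Ir followed by a cytological number and a letter. They numbered 179 of the 13931 genes with a deposited value, with 60 gustatory receptor (Gr), 59 odorant receptor (Or) and 60 ionotropic receptor (Ir) genes. The pattern takes no measured value into account. It leaves out Orco, the co-receptor shared by odorant receptors, which is given below with other genes of chemosensation.

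Chemoreceptors are the membrane proteins with which sensory neurons of the antenna, palp, proboscis and legs detect odors, tastants, temperature and humidity. An odorant receptor forms a channel together with Orco, an ionotropic receptor usually works with a broadly used partner such as Ir8a, Ir25a or Ir76b, and gustatory receptors detect sugars, bitter compounds and carbon dioxide. Each sensory neuron typically uses 1 or a few of them. Kenyon cells, the intrinsic neurons of the mushroom body, lie at a later step of the olfactory pathway and receive odor information from projection neurons of the antennal lobe.

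RNA was measured from Kenyon cell nuclei by TAPIN-seq, in which nuclei tagged with the reporter UNC84-2XGFP are captured with an antibody and their RNA is sequenced. Each of 7 subtypes was labelled by its own split-GAL4 driver line and gave 2 replicates, for 14 libraries. The γ class held γd (driver MB607B) and γm+d (MB131B), the α′/β′ class held α′/β′m (MB418B) and α′/β′ap+m (MB370B), and the α/β class held α/βp (MB371B), α/βs (MB185B) and α/βc (MB594B). All flies carried the reporter in an isogenic background and were 2 to 5 days old, and heads of both sexes were pooled. The γm+d driver also labels γd cells and the α′/β′ap+m driver also labels α′/β′m cells, so these pairs overlap, and the drivers have some expression outside the mushroom body. Values are TPM, an abundance that is scaled for transcript length and summed to the same total in each library, so that levels of different genes can be set side by side. TPM hold no record of read number, and the libraries' read numbers were not used here. What level a library could still detect is therefore unknown, and a value of 0 is given as listed at 0.

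The number of genes captured was uneven, which bears on every count below. Genes above 0 TPM numbered 5632 and 7601 in γd, 6534 in α/βp replicate 1 and 8836 to 11359 in the other 11 libraries. All 7 Kenyon cell markers checked, among them ey, toy, dac and mub, reached 10 TPM in at least 1 library, although prt was at 3.83 TPM in γd replicate 1. Their summed level was 13380 to 16770 TPM in γ, 12644 to 13047 TPM in α′/β′ and 10740.4 to 14638 TPM in α/β. The largest part of it was mub (mean 7266 TPM), whereas ey ran from 631 to 2854 TPM and dac from 111 to 543 TPM. Markers of other cells were also read. Photoreceptor markers summed to 469 to 1083 TPM in γ, 1060.4 to 2242 TPM in α′/β′ and 1372 to 4076 TPM in α/β, with all 10 at 10 TPM or more in at least 1 library. Most of this was ninaE and norpA, which differed in pattern. In γ, α′/β′ and α/β the medians were 441, 497 and 1337 TPM for ninaE and 240, 707 and 321 TPM for norpA. Of 9 markers of peripheral olfactory neurons and their support cells, 3 reached 10 TPM and 1 was listed at 0 throughout. Their sum was 0.24 to 52.8 TPM in γ, 54.1 to 105 TPM in α′/β′ and 21.0 to 82.97 TPM in α/β. Snmp1 (mean 36.5 TPM) and Obp19d (10.4 TPM) held most of this sum, whereas Orco averaged 1.23 TPM and the remaining markers less. Fat body markers, mostly the yolk protein genes Yp1, Yp2 and Yp3, summed to 377 to 1280 TPM in γ, 542 to 1905 TPM in α′/β′ and 1545 to 5904 TPM in α/β, so that every α/β library was above every γ library. Of the 5, 4 reached 10 TPM and Fbp1 peaked at 0.06 TPM. Markers of other neurons, such as Gad1 and VGlut, summed to 28.1 to 58.2 TPM in γ, 22.1 to 71.1 TPM in α′/β′ and 58.0 to 249 TPM in α/β. The part of other cells in the values below was not tested. In bulk nuclei, fewer cells with an RNA and less of it per cell cannot be told apart.

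Most chemoreceptor genes were near 0, and a few were not. The median over the 179 genes of the mean level was 0.215 TPM, against 5.28 TPM over all genes, and the median of the highest value in any library was 2.18 TPM, against 19.5 TPM. In all, 25 chemoreceptor genes (14.0%) were listed at 0 in all 14 libraries, against 7.01% of all genes. A further 42 never reached 1 TPM, and 68 peaked between 1 and 10 TPM. The remaining 44 genes (24.6%) reached 10 TPM in at least 1 library, a minimum that the study set among its criteria for differential expression, against 62.1% of all genes. Of these 44, 11 did so in 1 library only and 16 in 7 or more libraries, against 1226 and 5122 of 8646 over all genes. Only 10 of the 179 chemoreceptor genes were above 0 TPM in every library, against 4448 of all 13931 genes. These 10 were Or45a, Gr47a, Gr39a, Ir62a, Ir56a, Ir47a, Or43b, Ir76a, Ir40a and Or22a.

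**Figure D1:**
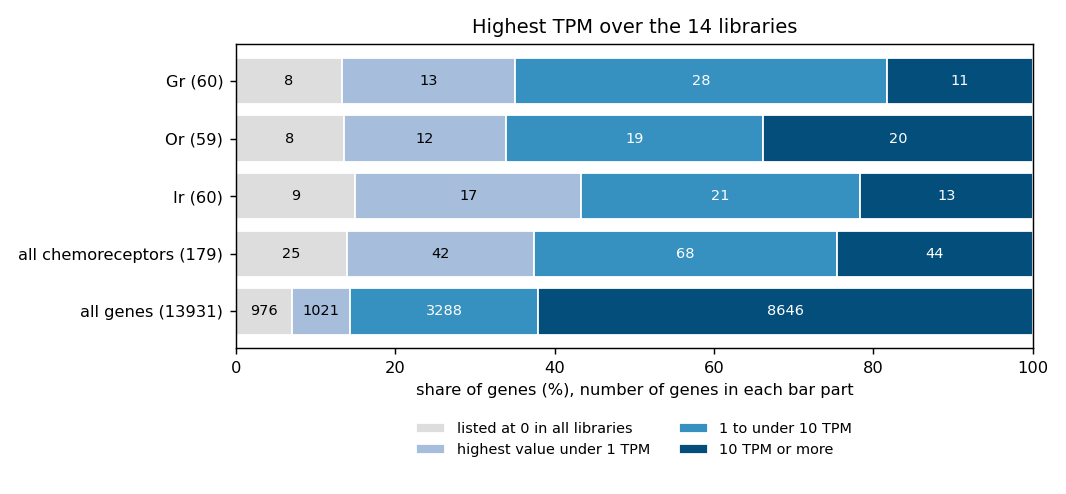
Share of genes (%) by their highest TPM over the 14 libraries, for the Gr, Or and Ir families, for all 179 chemoreceptor genes and for all 13931 genes, with the number of genes printed in each bar part. The part at 10 TPM or more holds 44 of 179 chemoreceptor genes and 8646 of all genes.

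By family, 20 of 59 Or genes (33.9%), 13 of 60 Ir genes (21.7%) and 11 of 60 Gr genes (18.3%) reached 10 TPM, and 8 Or, 9 Ir and 8 Gr genes were listed at 0 throughout. The genes listed at 0 were Gr23a, Gr36b, Gr58b, Gr58c, Gr59a, Gr92a, Gr93d and Gr98a among the gustatory receptors. They were Or23a, Or33b, Or33c, Or43a, Or47a, Or59a, Or67b and Or88a among the odorant receptors, and Ir7a, Ir7d, Ir7e, Ir10a, Ir60d, Ir68b, Ir75b, Ir87a and Ir94d among the ionotropic receptors. These 25 are named because of that value. How many genes are listed at 0 rests in part on α′/β′m replicate 2, the library with the most genes above 0, without which the count was 40. In that library 105 chemoreceptor genes were above 0, 15 of them in no other library, and 37 of the 154 genes seen at all had their highest value there. Chemoreceptor genes above 0 numbered 21 to 72 in γ, 74 to 105 in α′/β′ and 24 to 71 in α/β libraries. At the level of 10 TPM, the 3 genes just inside were Gr32a at 11.04 TPM, Or59b at 11.3 TPM and Gr22a at 12.3 TPM, and the 3 just outside were Or42b at 9.90 TPM, Ir21a at 9.30 TPM and Or85b at 9.02 TPM, each in its highest library.

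The shared co-receptors and the carbon dioxide and sweet receptors stayed below 10 TPM, except for Gr64d and the co-receptor Ir93a. Among the ionotropic co-receptors, Ir8a, needed by acid-sensing antennal receptors, peaked at 0.22 TPM, Ir76b at 0.29 TPM and Ir25a at 2.60 TPM, and they were above 0 in 3, 3 and 7 libraries. Gr21a and Gr63a, which together form the carbon dioxide receptor, peaked at 2.00 and 1.93 TPM and were each above 0 in 4 libraries. The sweet receptors had highest values of 2.36 TPM for Gr5a, 3.86 TPM for Gr61a, 5.67 TPM for Gr64a, 0.78 TPM for Gr64b, 2.72 TPM for Gr64c, 1.27 TPM for Gr64e and 0.72 TPM for Gr64f. Gr64d alone among them passed 10 TPM, with 25.04 TPM in α/βp replicate 2 and at most 1.97 TPM elsewhere. Gr64d shares 2882 exon bases with Gr64e, so reads of the cluster could be divided between the genes of this locus.

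Gr43a, a fructose receptor known from neurons of the central brain, was above 0 in 12 libraries and peaked at 6.64 TPM in α/βc replicate 2. Gr28a and Gr28b peaked at 0.33 and 1.62 TPM. Among bitter receptors, Gr33a peaked at 8.04 TPM, in γd replicate 2, and Gr32a at 11.04 TPM, in α′/β′m replicate 2. Or47b, a receptor for fly-derived fatty acid odors, was above 0 in 1 library, at 1.58 TPM. Or67d, the receptor for the male pheromone cis-vaccenyl acetate, reached 12.5 TPM in α/βs replicate 1. Ir21a, the cool receptor of the antenna, peaked at 9.30 TPM.

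The summed level of chemoreceptor RNA was carried by few genes. Over all libraries, Or45a alone held 25.8% of the summed chemoreceptor TPM, Or45a and Gr47a 41.8%, the highest 5 genes 68.6% and the highest 10 genes 83.8%. The sum was 668 to 3119 TPM in γ, 1702 to 2967 TPM in α′/β′ and 705 to 2479 TPM in α/β libraries. For the 25 genes with the highest mean, values follow in the order γd replicates 1 and 2 and γm+d replicates 1 and 2 for γ, and α′/β′m replicates 1 and 2 and α′/β′ap+m replicates 1 and 2 for α′/β′. The 6 α/β libraries are given as their range and median.

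**Figure D2:**
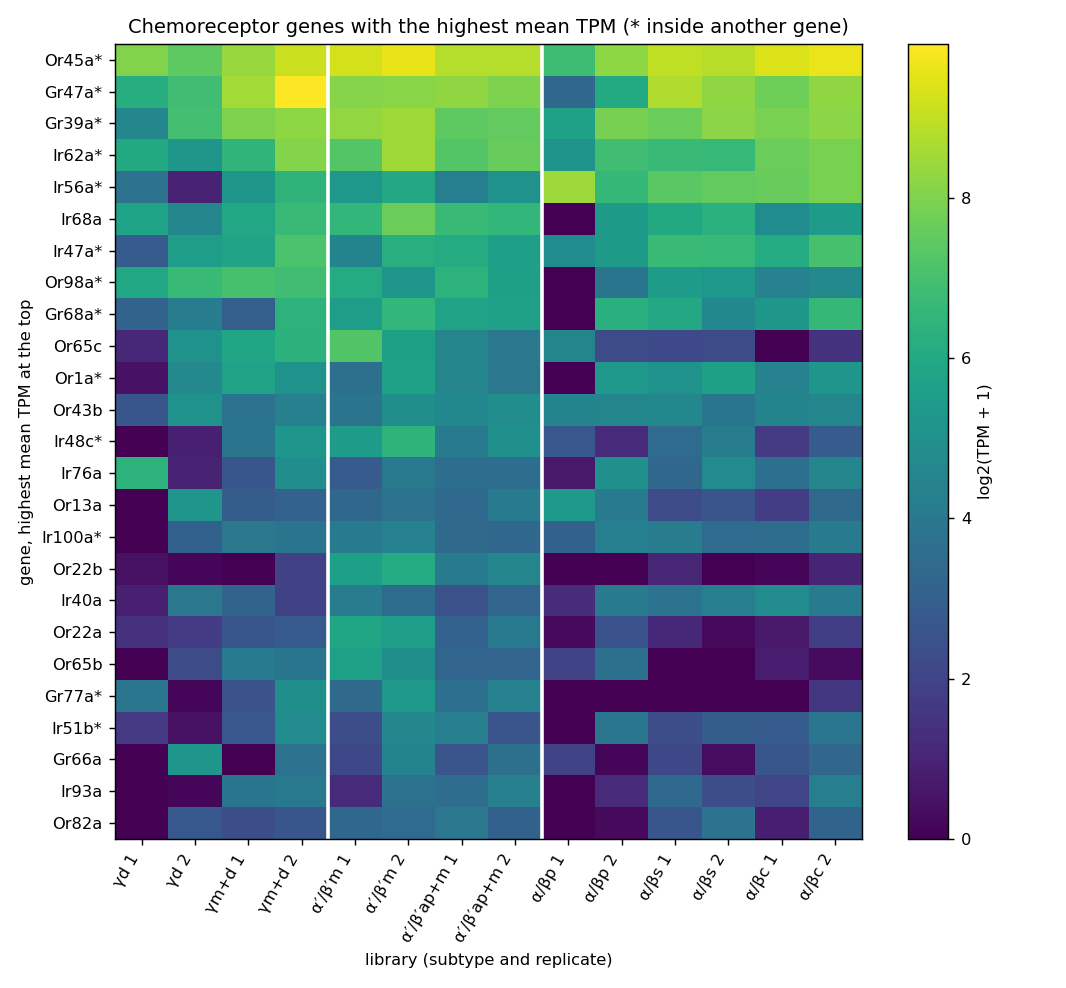
Level of the 25 chemoreceptor genes with the highest mean among the 44 that reached 10 TPM, as log2(TPM + 1), in each of the 14 libraries. Rows run down from the highest mean (Or45a), white lines part the γ, α′/β′ and α/β classes, and an asterisk marks a gene inside another gene. Or22b is dark in γ and α/β, and Gr77a in all 6 α/β libraries.

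Among the gustatory receptor genes, Gr47a and Gr39a stood far above the rest. Gr47a was at 72.2, 118, 375 and 966 TPM in γ, 279, 286, 311 and 252 TPM in α′/β′, and 9.11 to 424 TPM (median 259 TPM) in α/β. It was thus lowest in both α/βp and both γd libraries, and close to even across the 4 α′/β′ libraries. Gr39a, a locus with 4 alternative first exons joined to shared exons, was at 22.8, 124, 253 and 296 TPM in γ, 313, 362, 177 and 187 TPM in α′/β′, and 49.6 to 293 TPM (median 239 TPM) in α/β. The 3 classes overlapped, and the lowest values came from γd replicate 1 and α/βp replicate 1. Gr68a, known from courtship-related neurons of the male foreleg, was at 7.93, 16.8, 6.92 and 83.9 TPM in γ, 45.7, 93.3, 51.1 and 50.8 TPM in α′/β′, and 0 to 97.1 TPM (median 50.03 TPM) in α/β. All 3 classes overlapped here as well. Gr77a was at 13.7, 0.130, 4.76 and 29.6 TPM in γ, 9.88, 38.9, 11.3 and 20.3 TPM in α′/β′, and 0 to 2.07 TPM (median 0 TPM) in α/β. It was listed at 0 in 5 of 6 α/β libraries, and 7 of the 8 other libraries were above the highest α/β value. Gr66a, the receptor that marks bitter taste neurons, was at 0, 36.1, 0 and 12.4 TPM in γ, 3.39, 20.97, 5.10 and 11.6 TPM in α′/β′, and 0.140 to 8.66 TPM (median 3.29 TPM) in α/β. Gr66a lies 11 bases from Sbp2 on one side and 165 bases from BI-1 on the other, genes that averaged 37.1 and 29.9 TPM, and its classes overlapped.

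The highest chemoreceptor gene of all was Or45a, an odorant receptor known from the larva. Or45a was at 262, 173, 332 and 563 TPM in γ, 615, 772, 443 and 450.3 TPM in α′/β′, and 112 to 782 TPM (median 481 TPM) in α/β. Its lowest 2 values came from α/βp replicate 1 and γd replicate 2, and the classes overlapped. Or98a was at 58.3, 105, 129.6 and 117 TPM in γ, 67.5, 36.4, 83.3 and 49.4 TPM in α′/β′, and 0 to 42.7 TPM (median 22.2 TPM) in α/β. Every γ library exceeded every α/β library, and α′/β′ values overlapped with both. Or1a, another receptor of larval neurons, was at 0.410, 24.2, 50.9 and 33.1 TPM in γ, 11.5, 50.4, 22.1 and 14.2 TPM in α′/β′, and 0 to 48.3 TPM (median 34.02 TPM) in α/β, so that its classes overlapped. Or43b, an antennal receptor, was at 5.35, 32.6, 12.7 and 18.8 TPM in γ, 12.9, 29.4, 23.4 and 27.8 TPM in α′/β′, and 13.6 to 24.1 TPM (median 21.7 TPM) in α/β. Within α/β, 5 of 6 values lay between 21.2 and 24.1 TPM. Or43b shares 575 exon bases with Cul1 on the opposite strand, which averaged 72.7 TPM.

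Or65a, Or65b and Or65c lie in tandem on chromosome 3L and are used together in 1 type of antennal neuron. Or65c was at 1.18, 32.01, 56.3 and 82.6 TPM in γ, 148, 48.2, 21.8 and 14.6 TPM in α′/β′, and 0 to 22.1 TPM (median 3.69 TPM) in α/β. Or65b, 559 bases away, was at 0, 3.95, 15.8 and 13.4 TPM in γ, 50.3, 29.5, 8.41 and 8.45 TPM in α′/β′, and 0 to 11.6 TPM (median 0.470 TPM) in α/β. Both were highest in α′/β′m replicate 1 and low in most α/β libraries, with α/βp replicate 1 (Or65c) and replicate 2 (Or65b) as the highest of that class. Or65a peaked at 15.5 TPM, in α/βp replicate 2. A next neighbor of Or65c, CG13300, lies 255 bases away on the opposite strand and averaged 76.3 TPM.

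Or22a and Or22b are a second tandem pair, 541 bases apart on chromosome 2L, and both are used in antennal neurons that detect fruit esters. Or22a was at 1.68, 2.35, 5.33 and 6.26 TPM in γ, 56.3, 46.5, 7.63 and 15.1 TPM in α′/β′, and 0.150 to 4.65 TPM (median 0.885 TPM) in α/β. Or22b was at 0.370, 0.140, 0 and 2.77 TPM in γ, 47.9, 67.98, 15.6 and 22.01 TPM in α′/β′, and 0 to 1.12 TPM (median 0.0650 TPM) in α/β. All 4 α′/β′ libraries were above every γ and every α/β library for both genes. As similar copies of one another they could share reads, so that the division of the signal between Or22a and Or22b is uncertain. Or13a was at 0, 35.4, 6.63 and 7.76 TPM in γ, 8.96, 12.3, 9.37 and 15.97 TPM in α′/β′, and 2.51 to 39.8 TPM (median 7.46 TPM) in α/β, with its highest values in γd replicate 2 and α/βp replicate 1. Or82a was at 0, 5.6, 4.20 and 5.37 TPM in γ, 8.89, 10.1, 14.3 and 7.51 TPM in α′/β′, and 0 to 12.9 TPM (median 3.02 TPM) in α/β. Or13a overlapped between all classes. For Or82a every α′/β′ library was above every γ library, and α/β overlapped with both.

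Among the ionotropic receptors, Ir62a and Ir56a were highest. Ir62a was at 63.3, 36.9, 88.1 and 272 TPM in γ, 151, 367, 154 and 197 TPM in α′/β′, and 33.9 to 242 TPM (median 108 TPM) in α/β. Ir56a was at 12.2, 0.940, 37.1 and 87.5 TPM in γ, 38.03, 62.4, 18.6 and 32.9 TPM in α′/β′, and 95.7 to 353 TPM (median 190.4 TPM) in α/β. Every α/β library was above every γ and every α′/β′ library for Ir56a, whereas Ir62a overlapped between classes. Ir47a was at 6.27, 44.5, 54.7 and 137 TPM in γ, 21.00, 72.6, 67.1 and 47.4 TPM in α′/β′, and 27.2 to 129 TPM (median 84.1 TPM) in α/β, with overlap between the classes. Ir47a shares 413 exon bases with Ir47b, which was not analysed here. Ir48c was at 0, 0.820, 13.2 and 36.3 TPM in γ, 43.1, 86.5, 16.2 and 30.2 TPM in α′/β′, and 1.28 to 17.4 TPM (median 5.96 TPM) in α/β. The highest 2 values of Ir48c came from α′/β′m, and the lowest from γd replicate 1. Ir100a was at 0, 7.37, 14.4 and 13.2 TPM in γ, 16.1, 20.00, 9.84 and 9.26 TPM in α′/β′, and 7.35 to 18.4 TPM (median 12.9 TPM) in α/β. Only γd replicate 1 was listed at 0 for Ir100a, and the classes overlapped. Ir51b was at 2.09, 0.380, 5.50 and 26.7 TPM in γ, 4.12, 23.4, 17.7 and 5.13 TPM in α′/β′, and 0 to 13.8 TPM (median 6.48 TPM) in α/β, with overlap between all classes.

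Receptors of the humidity and temperature senses and of amines were also read. Ir68a, needed for sensing moist air, was at 52.7, 22.5, 60.9 and 102 TPM in γ, 92.98, 204, 103 and 94.2 TPM in α′/β′, and 0 to 80.6 TPM (median 42.3 TPM) in α/β. It was the highest chemoreceptor gene outside any other gene. Ir40a, needed for sensing dry air, was at 0.840, 14.3, 7.83 and 2.84 TPM in γ, 17.2, 10.4, 4.54 and 8.54 TPM in α′/β′, and 1.39 to 26.9 TPM (median 15.9 TPM) in α/β. Ir93a, which works with Ir25a in both humidity and cool sensing, was at 0, 0.120, 13.4 and 14.99 TPM in γ, 1.33, 12.2, 10.6 and 19.2 TPM in α′/β′, and 0 to 18.1 TPM (median 3.60 TPM) in α/β. Ir40a and Ir93a overlapped between all classes. For Ir68a, each of the 4 α′/β′ libraries was above every α/β library, and γ overlapped with both. Ir76a, an antennal receptor for amines, was at 83.9, 0.950, 5.37 and 28.3 TPM in γ, 6.12, 15.01, 11.1 and 10.9 TPM in α′/β′, and 0.600 to 30.7 TPM (median 16.4 TPM) in α/β. Its highest value, in γd replicate 1, was far from the next of that class. Ir76a shares 297 exon bases with CG14102 on the opposite strand, which averaged 25.5 TPM.

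The other 19 genes that reached 10 TPM were Gr9a, Gr22a, Gr32a, Gr47b, Gr64d, Gr94a, Or56a, Or59b, Or63a, Or65a, Or67c, Or67d, Or71a, Or85c, Or85f, Or92a, Ir56c, Ir84a and Ir85a. Their means over the 14 libraries ran from 0.934 TPM (Or59b) to 5.40 TPM (Gr9a), and their highest values from 11.04 TPM (Gr32a) to 25.04 TPM (Gr64d). Or63a reached 6.39 TPM in γ and 2.68 TPM in α′/β′, against 0 to 22.5 TPM (median 9.04 TPM) in α/β, differences that did not pass the tests below.

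The highest chemoreceptor genes lay mostly inside other genes. Of the 179 genes, 28 (15.6%) lie wholly within the span of another gene in an Ensembl annotation of the BDGP6 assembly, against 12.1% of all genes of the table. Of the 28 enclosed genes, 18 (64.3%) reached 10 TPM, against 26 (17.2%) of the 151 others. Over all genes the shares were 72.9% of enclosed and 60.5% of other genes. The median of the mean level was 5.04 TPM in enclosed and 0.164 TPM in other chemoreceptor genes, and 10.4 and 4.69 TPM over all genes. All of the highest 5, 8 of the highest 10 and 11 of the highest 20 chemoreceptor genes by mean level were enclosed ones. By family, 6 of 7 enclosed Gr genes, 5 of 12 enclosed Or genes and 7 of 9 enclosed Ir genes reached 10 TPM, against 5 of 53, 15 of 47 and 6 of 51 others. Members of 1 locus share their surroundings and are not independent, so these shares are a description.

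**Figure D3:**
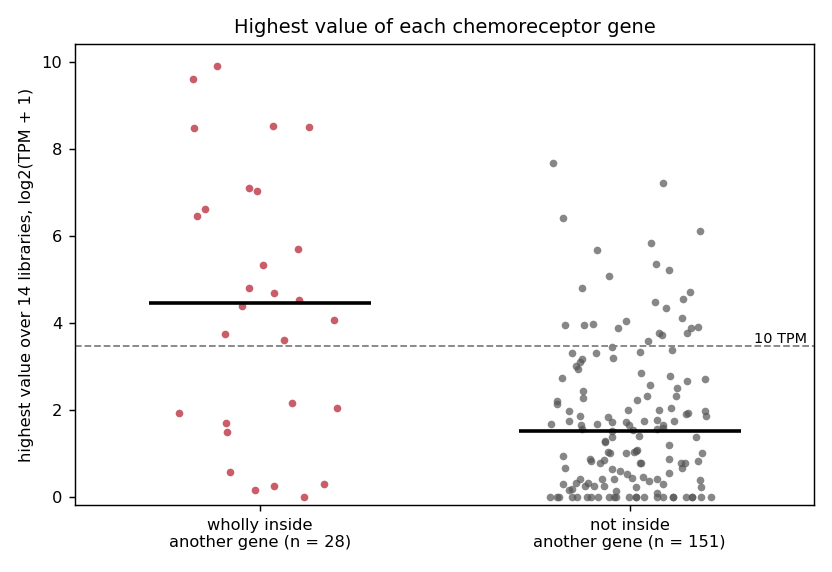
Highest value of each chemoreceptor gene over the 14 libraries, as log2(TPM + 1), for the 28 genes wholly inside another gene and the 151 that are not. Each point is a gene, the black line is the median and the dashed line marks 10 TPM, which 18 of 28 and 26 of 151 genes reach.

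Enclosed chemoreceptor genes were then divided by the level of the gene around them. Where the enclosing gene averaged 10 TPM or more, 16 of 18 enclosed chemoreceptor genes reached 10 TPM. Where it averaged less, 2 of 7 did, namely Or1a inside CG3777 (mean 1.23 TPM) and Gr94a inside p53 (3.54 TPM). The 3 whose enclosing gene, an antisense RNA, was not analysed here did not reach it. Of the 28, 23 lie on the strand opposite to the enclosing gene and 5 on the same strand, and 6 share exon bases with it. The sources used here do not say whether reads were assigned by strand. Reads from an unspliced transcript of the enclosing gene and reads from the enclosed gene therefore cannot be told apart in these values, and what part each had was not tested.

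The enclosing genes were of many kinds. Or45a lies on the opposite strand of both CG13739 (mean 4056 TPM) and CG13954 (116 TPM). Gr47a and Ir47a both lie inside SLO2, which encodes a potassium channel and averaged 667 TPM, Gr47a on the opposite and Ir47a on the same strand. Ir56a lies opposite to 5-HT1A (448 TPM), a serotonin receptor gene, and Gr39a opposite to Mondo (194 TPM), a sugar-responsive transcription factor gene. Ir62a lies on the same strand as Iml1 (115 TPM), whose product acts upstream of the TOR pathway. The other enclosing genes of members in the list of 25 were CG34353 for Or98a (186 TPM), loaf, listed as CG6024, for Gr68a (519.6 TPM), the FGF ligand gene ths for Ir48c (65.7 TPM), row for Ir51b (51.3 TPM), CG42233 for Ir100a (18.6 TPM) and CG13252 for Gr77a (17.9 TPM). Of the 25 genes, 13 are enclosed, Or1a among them, and none of the 13 shares an annotated exon base with the gene around it.

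From library to library, enclosed genes were not at 1 fixed fraction of the gene around them. As a ratio of class means (γ, α′/β′ and α/β), some were close to even. Ir62a was at 1.31, 1.30 and 1.34 of Iml1, although at 0.490 to 4.02 of it in single libraries. Ir56a was at 0.275, 0.228 and 0.242 of 5-HT1A. Others were uneven, such as Gr77a, at 0.778, 0.459 and 0.156 of CG13252, and Or98a, at 0.363, 0.360 and 0.169 of CG34353. The α/β ratio of Gr77a is one of values near 0. It rests on α/βc replicate 2 alone (2.07 TPM), with Gr77a at 0 in the rest of that class and CG13252 at 0 to 5.27 TPM. Or45a was below CG13739 and above CG13954 in all 14 libraries. Ir56a was below 5-HT1A in all 14, at 0.0166 to 0.521 of its TPM, and Ir47a was below SLO2 in all 14, at 0.00672 to 0.179 of its TPM. Gr39a was above Mondo in 9 libraries and Ir62a above Iml1 in 11. Or1a was above CG3777 in 13 libraries, the exception being α/βp replicate 1. Some enclosing genes that averaged 10 TPM or more also came with low values, although these were among the lower ones of that group. Or83a, on the opposite strand of CG1172 (30.3 TPM) and sharing 1362 exon bases with it, peaked at 3.13 TPM, and Or59c, inside CG43795 (17.1 TPM), peaked at 3.44 TPM. CG43795 itself was at 83.7 and 81.9 TPM in α/βp and at 30.7 and 27.1 TPM in α′/β′m, and at most 2.92 TPM elsewhere. Or83a and Or59c are named because they are the 2 exceptions among 18.

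Of the genes outside any other gene, 26 reached 10 TPM. The highest by mean were Ir68a at 70.6 TPM, Or65c at 31.4 TPM, Or43b at 20.6 TPM, Ir76a at 18.7 TPM, Or13a at 12.4 TPM, Or22b at 11.4 TPM, Ir40a at 11.3 TPM, Or22a at 10.7 TPM and Or65b at 10.4 TPM. These 9 are all that averaged 10 TPM or more. Or43b and Ir76a overlap exons of a neighbor, and Or65c, Or65b, Or22a and Or22b lie in tandem arrays.

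Whether chemoreceptor genes differed between Kenyon cell classes was tested with limma over the 8646 genes that reached 10 TPM in any library, on quantile-normalized log2(TPM + 1) values, with p-values adjusted over all of them. A gene was called when its adjusted p was below 0.05 and its groups differed 2-fold or more. All 44 chemoreceptor genes at 10 TPM entered, a level that a gene may pass through the 1 group where it is high. Fold changes on this scale understate the change of genes near 0. In γ relative to α′/β′, 1 of 44 was called (2.27%), against 2.82% of all genes tested. In γ relative to α/β, 4 were called (9.09%), against 3.1%, and in α′/β′ relative to α/β, 4 (9.09%), against 4.89%. The median log2 fold change of the 44 was -0.28, 0.36 and 0.70 in these comparisons, against -0.16, -0.11 and 0.07 over all genes tested. The 3 comparisons share libraries. In all, 6 genes were called between classes, namely Gr77a, Ir56a, Or98a, Or65c, Or22a and Or22b. The class fit counts the 2 libraries of a subtype as separate, although they share a driver line and each class holds only 2 or 3 subtypes. With 1 value per subtype, only Gr77a and Or22b stayed called, both in α′/β′ relative to α/β, and every call for γ was lost.

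Gr77a (FBgn0045474; 3L, 20737569 to 20739430, minus strand) was low or listed at 0 in α/β and higher in both other classes. It averaged 12.1 ± 13.01 TPM in γ (SD, n = 4) and 20.1 ± 13.4 TPM in α′/β′ (n = 4), against 0.345 ± 0.845 TPM in α/β (n = 6). It was higher in γ than in α/β (log2 fold change 3.38, SE 0.70, limma adjusted p = 0.00821), and higher in α′/β′ than in α/β, by 3.5 (SE 0.70, limma adjusted p = 0.00391). Over 25 alternatives the first fold change ran from 1.79 to 5.94 and the second from 1.80 to 6.21, sizes that depend on the pseudocount. The second call held in all 25 alternatives. The first was lost under 3 of 25, among them no normalization beyond TPM (adjusted p = 0.124) and median-ratio scaling (0.0818; range over the 25, 0.00238 to 0.124). The enclosing gene CG13252 (3L, 20730591 to 20744508, plus strand) differed likewise, at 15.5 and 43.8 TPM in γ and α′/β′ against 2.22 TPM in α/β. Its log2 fold changes were 3.36 (SE 0.59, limma adjusted p = 0.00192) and 4.07 (SE 0.59, limma adjusted p = 0.000171). The first was lost with no normalization beyond TPM (log2 fold change 2.45, adjusted p = 0.109) and with 1 value per subtype (0.0576), and the second held in all 25 alternatives. The part of CG13252 transcripts in the values of Gr77a was not tested.

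Ir56a (FBgn0050125; 2R, 19094267 to 19096174, minus strand) showed the opposite pattern. It averaged 34.4 ± 38.5 TPM in γ (SD, n = 4) and 37.9 ± 18.2 TPM in α′/β′ (n = 4), against 206 ± 86.1 TPM in α/β (n = 6). The log2 fold change was -2.66 for γ relative to α/β (SE 0.63, limma adjusted p = 0.0223) and -2.74 for α′/β′ relative to α/β (SE 0.63, limma adjusted p = 0.0121). Without γd replicate 2 the γ call was lost (log2 fold change -1.83, adjusted p = 0.0676), as it was without all 3 libraries with few genes (-1.32, adjusted p = 0.195; range over 25 alternatives, 0.01 to 0.195). It was also lost with no filter on low values (adjusted p = 0.0517), no variance trend (0.0576) and 1 value per subtype (0.127). The α′/β′ call was lost without α′/β′ap+m replicate 1 (-2.37, adjusted p = 0.0607; range over alternatives, 0.00108 to 0.091). No normalization beyond TPM (adjusted p = 0.091), median-ratio scaling (0.0632) and 1 value per subtype (0.0748) each ended it too. The enclosing gene 5-HT1A (2R, 19067155 to 19121958, plus strand) had log2 fold changes of -2.84 for γ (limma adjusted p = 1.68e-05) and -2.47 for α′/β′ (limma adjusted p = 3.96e-05), both relative to α/β. Those 2 calls held in all 25 alternatives. Its share in the Ir56a values was not tested.

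**Figure D4:**
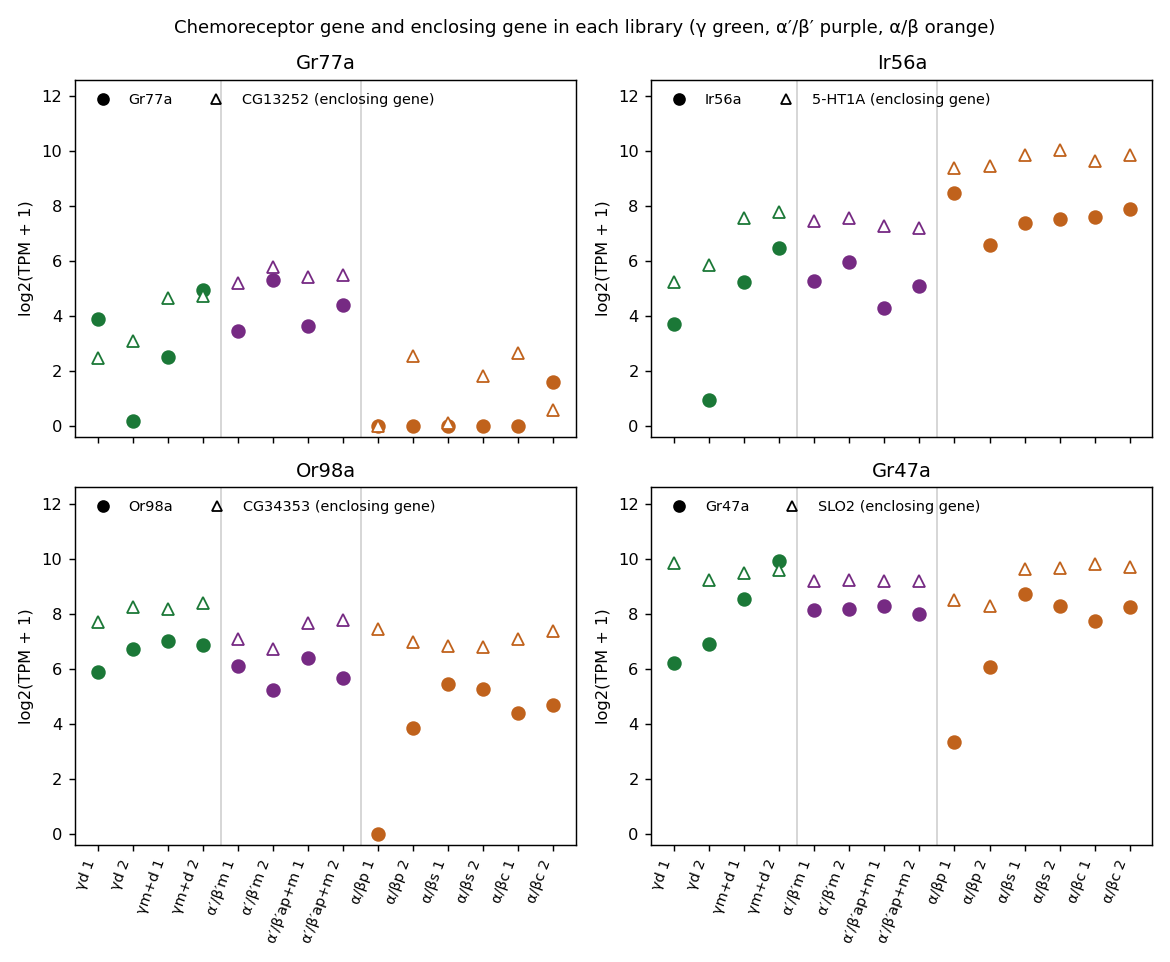
Level of Gr77a, Ir56a, Or98a and Gr47a (filled circles) and of the gene that encloses each (open triangles), as log2(TPM + 1), in each of the 14 libraries, with γ in green, α′/β′ in purple and α/β in orange. CG13252 and Gr77a are both low in α/β and 5-HT1A and Ir56a both high there, whereas SLO2 varies less than Gr47a.

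Or98a (FBgn0039551; 3R, 27845950 to 27847260, plus strand) was higher in γ than in α/β, at 102 ± 31.1 TPM (SD, n = 4) against 23.1 ± 15.7 TPM (n = 6). The log2 fold change was 3.21 (SE 0.76, limma adjusted p = 0.0236). The call was lost without γd replicate 1 (adjusted p = 0.0546), γd replicate 2 (0.0746) or γm+d replicate 1 (0.0799), and adjusted p over 25 alternatives ran from 0.00272 to 0.204. CG34353, the enclosing gene, was at 282 TPM in γ and 137 TPM in α/β (log2 fold change 1.16, SE 0.28, limma adjusted p = 0.0239). That call was lost without any 1 of γd replicate 2, γm+d replicates 1 and 2 and α/βs replicates 1 and 2 (adjusted p = 0.0547 to 0.0814). No normalization beyond TPM (adjusted p = 0.0755), no variance trend (0.0845) and 1 value per subtype (0.285) each ended it too. Or98a averaged 59.1 ± 20.6 TPM in α′/β′ (n = 4), and its difference there from α/β did not pass (log2 fold change 1.92, limma adjusted p = 0.216).

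Or65c (FBgn0041623; 3L, 6327608 to 6329069, plus strand) averaged 43.0 ± 34.7 TPM in γ (SD, n = 4), against 5.86 ± 8.10 TPM in α/β (n = 6). The fitted difference was 3.51 on the log2 scale (SE 0.92, limma adjusted p = 0.0418), and the call held in 7 of 25 alternatives. It was lost on leaving out any 1 of 10 libraries, namely γd replicate 2, both γm+d, α′/β′m replicate 2, α′/β′ap+m replicate 1, α/βp replicate 2, both α/βs and both α/βc libraries (adjusted p = 0.0525 to 0.131; over all alternatives, 0.00418 to 0.244). In α′/β′ Or65c averaged 58.0 ± 61.4 TPM, with a log2 fold change over α/β of 2.98 that did not pass (limma adjusted p = 0.0763).

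Or22b (FBgn0026397; 2L, 1522697 to 1524257, plus strand) had the largest log2 fold change between classes among the 44. It averaged 38.3 ± 24.2 TPM in α′/β′ (SD, n = 4), against 0.378 ± 0.539 TPM in α/β (n = 6), and 0.820 ± 1.31 TPM in γ (n = 4). Its log2 fold change was 4.37 for α′/β′ relative to α/β (SE 0.69, limma adjusted p = 0.000479), a call that held in all 25 alternatives. The size ran from 2.56 to 6.79 over them and depends on the pseudocount, because the α/β values are near 0. For γ relative to α′/β′ it was -3.13 (SE 0.76, limma adjusted p = 0.0281). This call was lost without γd replicate 2 (adjusted p = 0.063), γm+d replicate 1 (0.11), γm+d replicate 2 (0.0574), α′/β′m replicate 1 (0.0816) or α′/β′m replicate 2 (0.0977), within a range over alternatives of 0.00182 to 0.321. Or22a (FBgn0026398; 2L, 1520491 to 1522156, plus strand) averaged 31.4 ± 23.7 TPM in α′/β′ (n = 4), against 1.56 ± 1.76 TPM in α/β (n = 6) (log2 fold change 2.93, SE 0.74, limma adjusted p = 0.0231). That call was lost without α′/β′m replicate 1 (adjusted p = 0.112), α′/β′m replicate 2 (0.102), α/βs replicate 1 (0.052), α/βs replicate 2 (0.0543) or α/βc replicate 1 (0.052), within a range over alternatives of 0.00289 to 0.248. Neither Or22a nor Or22b lies inside another gene, and within α′/β′ both were higher in the α′/β′m libraries without passing the test for that pair (limma adjusted p = 0.166 and 0.323).

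Without the 3 libraries with few genes (γd replicates 1 and 2 and α/βp replicate 1), the class calls were Or22b alone for γ relative to α′/β′ (2.27% of 44, against 2.82% of the 8462 genes tested) and Gr77a, Or65c and Or98a for γ relative to α/β (6.82%, against 3.23%). For α′/β′ relative to α/β they were 9 (20.5%, against 6.81%), with Ir48c, Ir68a, Or63a, Or65b and Or65c beside Gr77a, Ir56a, Or22a and Or22b.

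Within the classes, fewer chemoreceptor genes were called. In γd relative to γm+d, 1 of 44 was called (2.27%), against 1.16% of all genes tested, and the median log2 fold change was -0.57, against -0.23. In α/βp relative to α/βs, 2 were called (4.55%), against 1.99%, and in α/βp relative to α/βc, 2 (4.55%), against 3.17%. In α′/β′m relative to α′/β′ap+m none was called by limma, against 1.1% of all genes, with 7 of 44 (15.9%) at an unadjusted p under 0.05, against 11.1% of all genes. In α/βs relative to α/βc no chemoreceptor gene and no other gene was called by limma (0% of all genes), with 0 of the 44 and 356 of 8646 genes at an unadjusted p under 0.05. With 2 libraries a subtype, these calls rest on few values. The γd and α/βp groups also hold the 3 libraries with few genes, and subtype and number of genes captured cannot be told apart there. Fat body markers summed to 1584 and 5904 TPM in α/βp, the second the highest of all libraries, against 2367 and 1545 TPM in α/βs and 1882 and 2120.4 TPM in α/βc. Those of other neurons summed to 249 and 143 TPM in α/βp, against 61.2 and 58.0 TPM in α/βs and 97.5 and 98.6 TPM in α/βc, and their part in these calls was not tested.

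Gr47a (FBgn0041242; 2R, 10362185 to 10363584, plus strand) carried most of these calls. It was lower in α/βp, at 9.11 and 65.2 TPM, than in α/βs, at 424 and 308 TPM (log2 fold change -3.63, SE 0.48, limma adjusted p = 0.00295). It was also lower there than in α/βc, at 213 and 305 TPM (log2 fold change -3.06, SE 0.48, limma adjusted p = 0.00488). The first call held in all 23 alternatives and the second in 22, being lost without α/βc replicate 2 (adjusted p = 0.0724, the highest over its alternatives, the lowest being 0.00187). In γd, at 72.2 and 118 TPM, it was below γm+d, at 375 and 966 TPM (log2 fold change -2.31, SE 0.48, limma adjusted p = 0.0443). This call in γ held in 8 of 22 alternatives and was lost without γd replicate 1 (adjusted p = 0.135), γm+d replicate 2 (0.273), any 1 α′/β′ library (0.0709 to 0.0833) or any 1 α/βs or α/βc library (0.0751 to 0.0818), within 0.0178 to 0.273 over its alternatives. The enclosing SLO2 (2R, 10322195 to 10416996, minus strand) was at 358 and 310.2 TPM in α/βp, against 782 and 809 TPM in α/βs and 889.8 and 825 TPM in α/βc. Its log2 fold changes were -1.28 (SE 0.21, limma adjusted p = 0.0115) and -1.39 (SE 0.21, limma adjusted p = 0.0046). Both were lost under median-ratio scaling (adjusted p = 0.295 and 0.262) and with no variance trend (0.127 and 0.0796), and on leaving out α/βs replicate 1 or 2 (0.076 and 0.099) in the first and α/βc replicate 1 (0.0623) in the second. In γd relative to γm+d the log2 fold change of SLO2 was 0.03 (SE 0.21, limma adjusted p = 0.971), within -0.17 to 0.81 over 22 alternatives, the highest with median-ratio scaling.

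Or45a (FBgn0033404; 2R, 9345349 to 9348863, plus strand) was at 112 and 303 TPM in α/βp, against 664 and 782 TPM in α/βc (log2 fold change -1.93, SE 0.35, limma adjusted p = 0.0133). The call was lost without α/βp replicate 1 (-1.37, adjusted p = 0.053), α/βc replicate 1 (0.0848) or α/βc replicate 2 (0.12), and over all alternatives adjusted p ran from 0.00185 to 0.12. Of the genes around it, CG13739 had a log2 fold change of -0.72 (limma adjusted p = 0.0649) and CG13954 of -1.32 (limma adjusted p = 0.244). Or98a was at 0 and 13.6 TPM in α/βp, against 42.7 and 37.7 TPM in α/βs (log2 fold change -3.70, SE 0.83, limma adjusted p = 0.0441). That call held in 4 of 23 alternatives. It was lost on leaving out any library other than the 2 γd libraries and α/βp replicate 2, with adjusted p = 0.171 without α/βp replicate 1 and 0.0526 to 0.217 without the others. Over all its alternatives adjusted p ran from 0.00257 to 0.217. Its enclosing gene CG34353 had a log2 fold change of 0.35 (SE 0.37, limma adjusted p = 0.69).

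**Figure D5:**
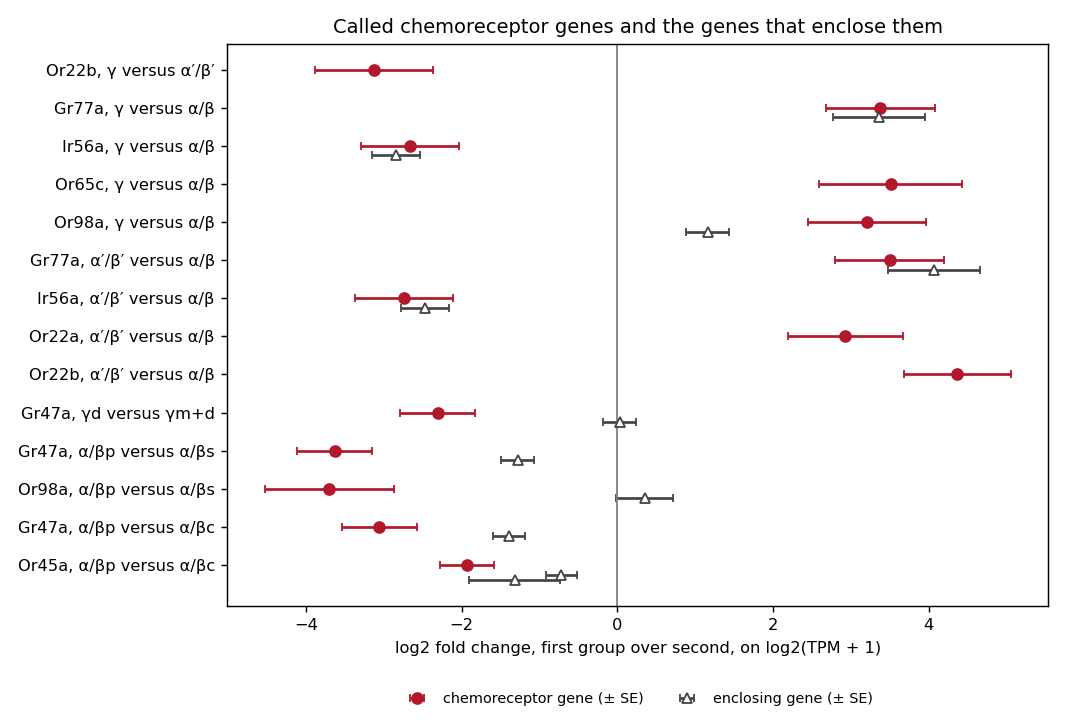
Log2 fold change (± SE) of each called chemoreceptor gene, first group over second, from the limma fit on log2(TPM + 1) values (red circles), and of the gene or genes that enclose it in the same comparison (open triangles). Gr77a and Ir56a lie near the values of CG13252 and 5-HT1A, and Gr47a in γd relative to γm+d lies at -2.31 beside 0.03 for SLO2.

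Other genes of chemosensation gave the setting for these values. Of 38 such genes, 37 were analysed, 4 were listed at 0 throughout and 13 reached 10 TPM. Orco was above 0 in 6 libraries and peaked at 5.52 TPM, in γd replicate 2. The odorant-binding protein genes Obp59a and Obp99a and the proneural genes amos and ato were those listed at 0. Snmp1, needed for pheromone detection by antennal neurons, was above 0 in all 14 libraries with a mean of 36.5 TPM. The highest was ppk25, a channel subunit known from pheromone-sensing taste neurons, with a mean of 235 TPM. CheB42a, an adjacent gene that is expressed in the same taste neurons, averaged 51.4 TPM. No member of the list was called in γ relative to α′/β′ by limma (2 of 13 at an unadjusted p under 0.05, or 15.4%, against 14.7% of all genes) or in α′/β′ relative to α/β (1 of 13, or 7.69%, against 14.4%). In γ relative to α/β, 1 of 13 was called (7.69%), against 3.1% of all genes tested. In α/βp relative to α/βs and to α/βc, 2 of 13 were called each time (15.4%), against 1.99% and 3.17%. None was called in γd relative to γm+d, α′/β′m relative to α′/β′ap+m or α/βs relative to α/βc, against 1.16%, 1.1% and 0% of all genes.

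CheB42a was higher in γ, at 36.8, 80.1, 115 and 149 TPM, than in α/β, at 4.69 to 60.3 TPM (median 27.7 TPM) (log2 fold change 2.50, SE 0.65, limma adjusted p = 0.0413). The call held in 9 of 25 alternatives, and leaving out any library other than α/βp replicate 1, α/βs replicate 1 and α/βc replicate 2 ended it (adjusted p = 0.0502 to 0.12). In α/βp, ppk25 was at 765 and 446 TPM, against 129 and 89.5 TPM in α/βs and 148 and 199 TPM in α/βc. Its log2 fold change was 2.40 over α/βs (SE 0.44, limma adjusted p = 0.0169) and 1.82 over α/βc (SE 0.44, limma adjusted p = 0.0441). The first was lost without α/βp replicate 1 (adjusted p = 0.0908), α/βs replicate 1 (0.076) or α/βs replicate 2 (0.145), and with no normalization beyond TPM (0.0542), median-ratio scaling (0.0887) or no variance trend (0.0628). The second held in 8 of 23 alternatives and was lost without any α′/β′, α/βs or α/βc library or α/βp replicate 1 (0.0622 to 0.225). Obp57c was at 17.2 and 49.9 TPM in α/βp, against 0 and 0 TPM in α/βs and 0.38 and 2.29 TPM in α/βc. The fitted log2 fold change was 4.95 over α/βs (SE 0.76, limma adjusted p = 0.00745) and 4.17 over α/βc (SE 0.76, limma adjusted p = 0.0133), and both sizes depend on the pseudocount, the first also because both α/βs libraries are at 0. The first call was lost without α/βs replicate 2 (adjusted p = 0.0675). The second was lost without α/βc replicate 1 (0.0996) or 2 (0.0724) and with a pseudocount of 0.1 (log2 fold change 5.69, adjusted p = 0.0629).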

How the data were processed

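Nuclear RNA of 7 Kenyon cell subtypes, 2 independent replicates each, was sequenced by the authors. Reads were trimmed with seqtk, and abundances were estimated with kallisto against BDGP6 transcripts from Ensembl together with the reporter and spike-ins. After entries of the reporter, the spike-ins and ribosomal RNA had been dropped, the authors rescaled the remainder and deposited TPM per transcript and per gene. The version of kallisto and any strand setting are not given in the sources used here. The authors' tables of subtype and class means were not used, and 0 per-sample columns lacked a sample. Libraries were grouped by driver line and cell type in the labels.

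The authors ran voom on estimated counts, which was not repeated because TPM are not counts. Instead limma 3.58.1 (R 4.3.3) was fitted to all 14 libraries, on quantile-normalized log2(TPM + 1) with a pseudocount of 1, for 8646 of the 13931 genes, those that reached 10 TPM in any library. The fit had 1 mean per class (3 contrasts) or per subtype (5 contrasts), a shared variance and a variance trend. P-values were two-sided and adjusted by the Benjamini-Hochberg method over all genes tested for each contrast. Calls required adjusted p values below 0.05 together with a difference of 2-fold or more. The fit was also run on simulated libraries, drawn independently of one another and with changes only in genes above 10 TPM on average. That run cannot speak to genes near 0 or to deviations shared by libraries of the same subtype. P-values measure the spread between these libraries only, and read depth was not used here, so no counting interval is given. A group left with 1 library in a leave-one-out fit was assumed to vary like the others.

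Positions came from an Ensembl annotation of BDGP6 that holds all 179 chemoreceptor genes and 13833 genes of the table. A gene was enclosed if its span lay wholly within that of another gene. Genes were named if they reached 10 TPM, were called, lay just outside 10 TPM, or are well-known receptors and co-receptors, and the 25 with the highest mean got their values in every library. The members, the list of 38 chemosensory genes, the marker lists and the alternatives were chosen with earlier results of these data known. Of the marker lists, those for neurons, glia and muscle summed over the 14 libraries to 5135 to 10336 TPM, 49.2 to 308 TPM and 207 to 617 TPM. Deviations of same-numbered replicates correlated over 0.1 in 3 of 21 pairs of subtypes, all 3 among γm+d, α′/β′m and α/βp (highest r = 0.208). Since not every pair did and the labels name no shared batch, the numbers were not used as pairs. Python 3.11.15, numpy 2.4.6, pandas 2.3.3 and matplotlib 3.10.9 were used for counts and figures. Sequences were not used here.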

Additional observations from a re-analysis of the deposited data

Results flagged for a closer look

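Among the 25 chemoreceptor genes with the highest mean, each class was searched for a library far from the others on the log2(TPM + 1) scale. Of 75 groups searched, 11 held such a library, where chance gives about 1 in 20. The groups reuse the same libraries and are not independent, so no excess is read from this count. In 6 of the 11 the library was α/βp replicate 1, with 6534 genes above 0 TPM. It was the lowest of the 6 α/β libraries for Gr39a, at 49.6 TPM against 206 to 293 TPM, and for Ir40a, at 1.39 TPM against 12.9 to 26.9 TPM. It was listed at 0 for Ir68a, against 27.0 to 80.6 TPM in the other 5, for Or98a, against 13.6 to 42.7 TPM, for Gr68a, against 23.5 to 97.1 TPM, and for Or1a, against 20.2 to 48.3 TPM. The part of the number of genes captured in these values was not tested.

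In 2 groups the library was α′/β′m replicate 2, which had the most genes above 0 TPM (11359). It was the highest of the 4 α′/β′ libraries for Ir68a, at 204 TPM against 93.0 to 103 TPM, and for Gr68a, at 93.3 TPM against 45.7 to 51.1 TPM. The other 3 libraries were α/βs replicate 2 for Or43b (13.6 TPM, against 21.2 to 24.1 TPM), α/βc replicate 2 for Gr77a (2.07 TPM, against 0 in the other 5 α/β libraries) and γd replicate 1 for Or82a (0 TPM, against 4.20 to 5.6 TPM).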

How the results depend on the processing

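The calls of Gr77a and Or22b in α′/β′ relative to α/β and of Gr47a in α/βp relative to α/βs held in every alternative run, and no called chemoreceptor gene changed direction in any. Counts of called chemoreceptor genes moved more. For γ relative to α′/β′ the 1 call became 0 with a pseudocount of 0.1, with no filter on low values and with 1 value per subtype. For γ relative to α/β the 4 calls became 2 with a pseudocount of 0.1 and with median-ratio scaling, 1 with no normalization beyond TPM, no filter or no variance trend, and 0 with 1 value per subtype. For α′/β′ relative to α/β they became 9 without the 3 libraries with few genes, 8 from the model with 1 mean per subtype and 2 with 1 value per subtype. For γd relative to γm+d the 1 call became 0 with median-ratio scaling, no filter or no variance trend. For α′/β′m relative to α′/β′ap+m the 0 calls became 3 with no filter (Gr22b, Gr22c and Or59c, named because they were called) and 1 without the 3 libraries (Gr39a). For α/βp relative to α/βs the 2 calls became 1, Gr47a, with pseudocounts of 0.1 and 5, no normalization, median-ratio scaling, no filter, no variance trend and the replicate block. For α/βp relative to α/βc the 2 became 1 with median-ratio scaling or no variance trend and 4 without the 3 libraries (Gr64d and Or59b were added). Those 3 libraries could not be removed for γd relative to γm+d, which leaves no γd library.

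Leaving out each library in turn gave 0 to 1, 1 to 4 and 3 to 6 calls in the 3 class comparisons, in the order above. It gave 0 to 5 for γd relative to γm+d, 0 to 0 for α′/β′m relative to α′/β′ap+m and for α/βs relative to α/βc, 1 to 7 for α/βp relative to α/βs and 0 to 9 for α/βp relative to α/βc, with 7 and 9 without α/βp replicate 2. The genes at 10 TPM numbered 41 to 44, and those listed at 0 in all libraries numbered 25 to 40. At 20 TPM in place of 10 TPM, 28 genes remained. With the replicate number as a block the calls for γ relative to α/β were 3 in place of 4, and the lost gene, Or65c, had an adjusted p = 0.0513. Of the enclosing genes, SLO2 in γd relative to γm+d had a log2 fold change of -0.17 without γd replicate 1, 0.23 without γd replicate 2 and 0.81 with median-ratio scaling. CG34353 in α/βp relative to α/βs was at -0.10 without α/βp replicate 1 or without the 3 libraries, and at 0.82 without α/βp replicate 2. The cause of these changes was not tested. Scaling shifted the median log2 fold change of all genes, for γ relative to α′/β′ to -0.50 with median-ratio scaling and -0.88 with no normalization, against -0.16. TPM do not record depth, and how far it limits values near 0 was not analysed here.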

Other observations

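At the level of transcripts, all 4 Gr39a isoforms were read, each of which has its own first exon. Gr39a-RB averaged 68.0 TPM, Gr39a-RD 62.4 TPM, Gr39a-RC 55.4 TPM and Gr39a-RA 32.3 TPM over the 14 libraries, or 31.2%, 28.6%, 25.4% and 14.8% of the gene. By class, Gr39a-RD was at 36.9 ± 39.5 TPM in γ (SD, n = 4), 72.8 ± 35.3 TPM in α′/β′ (n = 4) and 72.6 ± 43.3 TPM in α/β (n = 6), and no test was run on isoforms. Other loci with several isoforms were read mainly through 1 of them. Ir68a-RA held 99.1% of Ir68a, Ir40a-RG 96.4% of Ir40a, Gr64d-RC 98.9% of Gr64d and Ir76a-RA 76.2% of Ir76a. Gr64d-RC was above 0 in 5 libraries, and its share rests mostly on α/βp replicate 2 (25.04 TPM). That of Ir76a-RA rests in good part on γd replicate 1 (83.9 TPM), a library with few genes.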
